A study of Mus musculus with 6 samples.

Results

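The genes described here encode the fenestral diaphragm protein and the coat and neck proteins of caveolae. The members were 8 genes taken by symbol from the deposited tables, Plvap, Cav1, Cav2, Ptrf, Sdpr, Prkcdbp, Ehd2 and Pacsin2, of 24421 symbols in the count table and 24346 in the FPKM table. Ptrf, Sdpr and Prkcdbp are older symbols of cavins 1, 2 and 3. All 8 were present in both tables, and all 8 were among the 14612 genes kept for testing.

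ECs were sorted from mouse liver as CD31+CD45- cells, a gate for the endothelial surface protein CD31 and against the leukocyte protein CD45. The mice were wild-type C57BL/6J females per the methods. There were 3 samples of young (10 weeks) and 3 of aged mice (127, 131 and 136 weeks). Neither group had a transgene, deletion or treatment. The methods do not state how many mice gave each sample. Each sample gave 1 RNA library, and each aged sample is called by its weeks. Per the methods, animals with visible tumours or an enlarged liver or spleen were left out. The question was how liver ECs of aged mice differ in gene expression from those of young mice.

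Fenestrae are pores through the thin body of an EC, and caveolae are flask-shaped pits of its surface membrane. In most fenestrated capillaries a diaphragm of the protein Plvap spans each fenestra, and the same protein forms the diaphragm at the mouth of a caveola. Adult liver sinusoids are known for fenestrae that mostly lack a diaphragm. A caveola is built from caveolins in the membrane and a coat of cavins around it, while ATPases of the EHD family and curvature-sensing PACSIN proteins sit at its neck.

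None of the 8 genes passed the test between aged and young ECs, and 5 of them had the same libraries at both ends of their range. Plvap, Cav1, Ptrf, Prkcdbp and Ehd2 were each highest in the 136-week sample and lowest in young sample 3. The share of all genes with these same extremes was not counted, so the pattern is not shown to be particular to these genes. Cav2 had 2 low and 4 higher libraries, and Pacsin2 3 low and 3 higher ones. Sdpr varied by 1.27-fold over all 6 samples, the least of the 8, and its 3 aged values all lay below its 3 young values. The plot by sample gives their levels in CPM, which are counts divided by the library total after its correction with TMM factors.

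**Figure D1:**
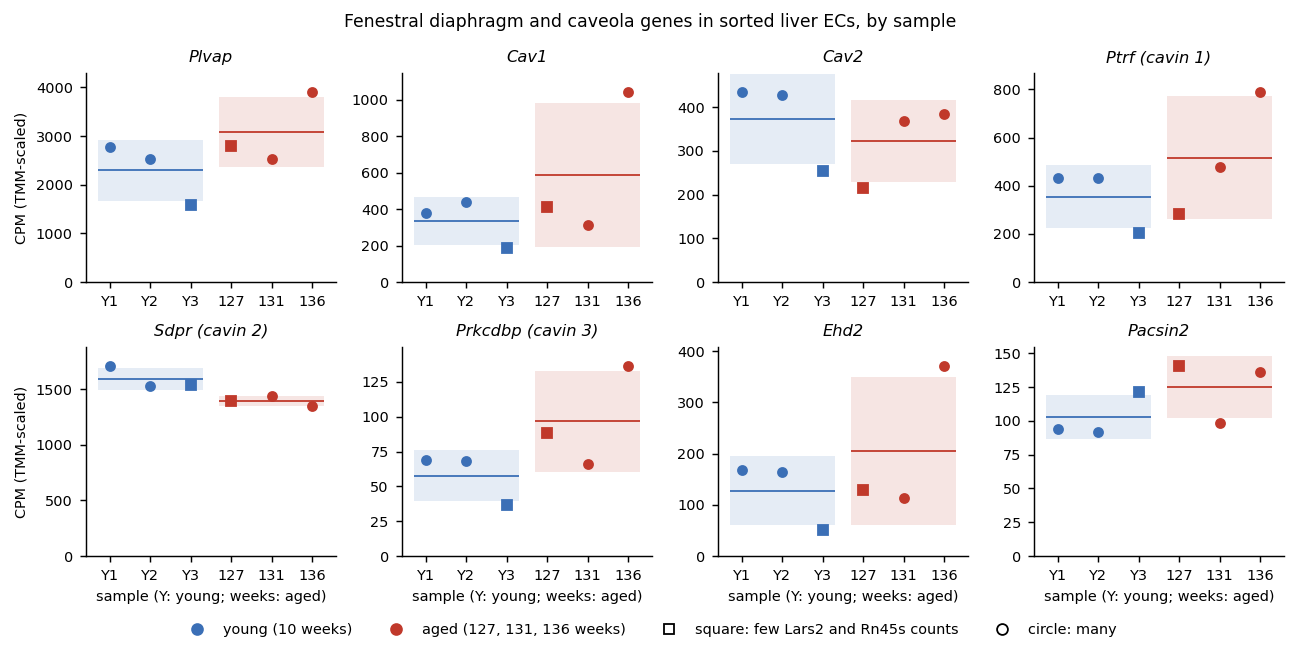
TMM-scaled CPM of the 8 genes in each of the 6 samples, with a panel for each gene and a vertical axis from 0. Y1 to Y3 are the young samples, 127, 131 and 136 the weeks of the aged samples, lines the group means and shaded bands ± 1 SD (n = 3); squares mark the 2 libraries with few Lars2 and Rn45s counts. Only in the Sdpr panel do all 3 aged points (1347 to 1438) lie below all 3 young points (1527 to 1707).

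The libraries differed in ways that age did not explain. Total counts ran from 23001556 to 31651817 per sample. Lars2 and Rn45s, symbols that collect ribosomal RNA reads, held 1.29% of the counts in young sample 3 and 0.960% in the 127-week sample, against 4.68% to 5.53% in the other 4 samples. Differences are therefore also given within these library clusters, the larger of which holds young samples 1 and 2 and the 131- and 136-week samples. The smaller cluster has 1 young and 1 aged sample, so its differences have no replicate check. Endothelial identity was plain in every library: the summed level of 10 pan-EC markers was 13115 to 14486 CPM in young and 10075 to 11988 CPM in aged samples. The summed level of 18 leukocyte markers was 39.9 to 78.8 CPM in young samples, and 194, 43.4 and 556 CPM at 127, 131 and 136 weeks. Ptprc, which encodes CD45, stood at 1.17 to 1.70 CPM in young samples and at 7.57, 1.28 and 25.6 CPM in the same aged samples, so the sample in which 5 members were highest also had the highest leukocyte sum. The part of these cells, of the library clusters and of cell type makeup in the values below was not tested. In bulk RNA, fewer cells of a type and less RNA per cell cannot be told apart. No pair of same-age libraries was alike within counting noise (smallest chi-square per degree of freedom 20.5). The p-values of the main test set the difference between the groups against the spread between samples within them. That spread includes the difference between the library clusters.

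The genes lie on 6 chromosomes of mm9, and their positions come from the GENCODE annotation of that build. Cav2 (chr6:17231185-17239115, + strand) and Cav1 (chr6:17256335-17291452, + strand) are neighbours with 17219 bases between them. Plvap is at chr8:74021653-74035668 (- strand), Ptrf at chr11:100818047-100832201 (- strand), Sdpr at chr1:51345970-51359803 (+ strand), Prkcdbp at chr7:112629121-112630711 (- strand), Ehd2 at chr7:16532326-16552916 (- strand) and Pacsin2 at chr15:83206037-83295036 (- strand). All 8 are protein-coding. Gm15581, Gtpbp3 and Gm5417 overlap the span of a member, but none shares an exon base with it, and no 75-base stretch of a member's transcripts occurs in the transcripts of another protein-coding gene. Whether pseudogenes hold such stretches was not tested.

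Levels per transcript length were compared on the FPKM scale. Plvap was the highest of the 8 genes in every sample. Its FPKM values were 1479, 1346 and 865 in young samples 1 to 3, and 1511, 1346 and 2069 at 127, 131 and 136 weeks. Only 32 of 24346 genes, Plvap included, had a mean FPKM at or above its mean of 1436, although adult sinusoids are known for fenestrae mostly without a diaphragm. Sdpr followed in every sample, at 516 to 577 FPKM in young and 454 to 485 FPKM in aged samples. Cav1, Cav2 and Ptrf formed the next tier and did not keep an order. Their mean FPKM over 6 samples was 191, 133 and 139.5, and Cav2 exceeded Cav1 in 3 of 6 samples. Prkcdbp came next by its mean (90.2 FPKM), then Ehd2 (56.0 FPKM) and Pacsin2 (31.6 FPKM). Ptrf exceeded Prkcdbp in 5 of 6 samples, the exception being the 127-week sample, Prkcdbp exceeded Cav2 at 127 weeks (104 against 83.1 FPKM) and at 136 weeks (158 against 145 FPKM), and Ehd2 exceeded Pacsin2 in 5 of 6, the exception being young sample 3. Among the cavins, cavin 2 was thus the highest per length in all 6 samples.

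The stretches of 250 bases before the gene start are shown for 3 genes that were highest at 136 weeks and lowest in young sample 3 (Cav1, Ptrf, Ehd2) and for 2 with another pattern (Cav2, Sdpr). They are RefSeq sequences of build GRCm38.p6, a later build than the mm9 of the counts, and were matched by symbol for 6 of the 8 genes (not Plvap and Prkcdbp). Each reads 5′ to 3′ on the strand of its gene. Capitals mark matches, on either strand, to a motif: GGGCGG is the box bound by Sp1-type zinc finger factors. CACCC is the motif of the KLF factors, AGATAA that of the family to which Gata4 belongs, and TATAAA the core element of some promoters. No 2 matches overlap.
Cav1, chr6:17306085-17306334, + strand: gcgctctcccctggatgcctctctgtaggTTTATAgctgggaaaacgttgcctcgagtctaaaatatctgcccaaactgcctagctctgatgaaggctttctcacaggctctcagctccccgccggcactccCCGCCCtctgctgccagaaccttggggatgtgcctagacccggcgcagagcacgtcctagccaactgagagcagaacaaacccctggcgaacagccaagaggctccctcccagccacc
Ptrf, chr11:100970618-100970867, - strand: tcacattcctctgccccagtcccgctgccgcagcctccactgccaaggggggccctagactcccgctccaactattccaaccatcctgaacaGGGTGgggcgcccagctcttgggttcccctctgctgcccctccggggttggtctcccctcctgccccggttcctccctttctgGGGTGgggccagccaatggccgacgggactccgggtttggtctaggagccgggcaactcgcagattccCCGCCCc
Ehd2, chr7:15967536-15967785, - strand: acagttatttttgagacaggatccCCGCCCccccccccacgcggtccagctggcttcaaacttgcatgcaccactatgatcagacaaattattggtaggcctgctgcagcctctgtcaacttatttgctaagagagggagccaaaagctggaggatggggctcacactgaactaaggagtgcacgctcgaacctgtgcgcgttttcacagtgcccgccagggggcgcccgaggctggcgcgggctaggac
Cav2, chr6:17280935-17281184, + strand: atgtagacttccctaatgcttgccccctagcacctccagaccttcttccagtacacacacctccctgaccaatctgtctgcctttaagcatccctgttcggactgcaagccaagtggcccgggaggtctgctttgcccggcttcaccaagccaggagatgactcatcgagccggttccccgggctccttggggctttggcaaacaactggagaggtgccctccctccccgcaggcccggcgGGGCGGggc
Sdpr, chr1:51288876-51289125, + strand: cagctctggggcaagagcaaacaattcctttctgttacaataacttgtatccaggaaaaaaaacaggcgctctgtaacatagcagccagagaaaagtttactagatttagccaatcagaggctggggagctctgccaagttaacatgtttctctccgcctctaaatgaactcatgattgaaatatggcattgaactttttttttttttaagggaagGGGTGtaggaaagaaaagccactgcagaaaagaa

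Of these 4 motifs, GGGCGG was found in the stretches of Cav1, Cav2, Ptrf, Ehd2 and Pacsin2 and not in that of Sdpr, against 33% of 27025 mouse promoter stretches of the same length. CACCC was found 2 times in Ptrf and 1 time in Sdpr, against a share of 51.3%. Cav1 had 1 match to TATAAA, on the opposite strand, against a share of 13%, and AGATAA was found in none of the 6, against a share of 10.2%. The Sdpr stretch held 40.4% G and C, below the 52.0% median of all promoter stretches, while the other 5 held 58.0% to 67.6%. The Sdpr stretch thus differed from the other 5 in base composition, which is a description of 6 stretches and no test.

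Plvap, the diaphragm protein, had TMM-scaled CPM of 2779.9, 2529 and 1587 in young samples 1 to 3, and of 2799, 2537 and 3901 at 127, 131 and 136 weeks. The groups overlapped, since the 127- and 131-week values lay close to those of young samples 1 and 2. The means were 2299 ± 629 CPM in young and 3079 ± 724 CPM in aged ECs (SD, n = 3 each). The log2 fold change of aged over young was 0.42 (SE 0.28, 95% interval -0.24 to 1.08), and it did not pass the test (edgeR's quasi-likelihood test with Benjamini-Hochberg adjustment, adjusted p = 0.60). No member passed, 0 of 8, where 0% of all genes tested passed at an adjusted p of 0.05 (smallest adjusted p 0.0735). At an unadjusted p below 0.05 edgeR marked 12.6% of all genes and 0 of the 8. DESeq2 called 4.37% of all genes and also 0 of the 8.

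Cav1 encodes caveolin 1, without which ECs form no caveolae. Its CPM was 378, 438 and 185 in young samples 1 to 3, and 411, 312 and 1041 at 127, 131 and 136 weeks. The 136-week value was 3.12 times the young mean, whereas the 131-week value was 0.765 times the mean of young samples 1 and 2, from the same library cluster. The log2 fold change was 0.82 (SE 0.50, edgeR adjusted p = 0.56), with a 95% interval of -0.36 to 2.00 that spans both directions. Without the 136-week sample it was 0.12.

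Cav2 encodes caveolin 2, which joins caveolin 1 in mixed oligomers. Its CPM was 434, 429 and 253 in young samples 1 to 3, and 215, 367 and 384 at 127, 131 and 136 weeks. Unlike its neighbour Cav1 it was near the young mean at 136 weeks, at 1.03 times that value. Its log2 fold change was -0.21 (SE 0.29, edgeR adjusted p = 0.84), and its sign turned without the 127-week sample (0.019) and on scaling to pan-EC markers (0.087). Under that scaling the median of all genes was 0.32. The 2 lowest values came from the 2 libraries with few Lars2 and Rn45s counts.

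Cavin 1, encoded by Ptrf, is the coat protein that all caveolae need. Its CPM was 430.0, 431 and 205 in young samples 1 to 3, and 281, 479 and 788 at 127, 131 and 136 weeks. Within each library cluster the aged samples were higher, by 0.51 on the log2(CPM + 1) scale in the larger and by 0.45 in the smaller. The pooled log2 fold change was 0.54 (SE 0.42, edgeR adjusted p = 0.66). It was 0.099 without the 136-week sample and 0.84 without the 127-week sample.

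Cavin 2, encoded by Sdpr, bends the membrane of the caveola and binds phosphatidylserine. Its CPM was 1707, 1527 and 1540.5 in young samples 1 to 3, and 1391, 1438 and 1347 at 127, 131 and 136 weeks. Every aged value was below every young value, on the CPM and on the FPKM scale, and it was the 1 of 8 members whose groups did not overlap. Over all genes tested the groups did not overlap for 17.9% (9.62% with aged higher and 8.33% with aged lower), so 1 of 8 is near that background. The means were 1591 ± 100.1 and 1392 ± 45.5 CPM (SD, n = 3 each), and the log2 fold change was -0.19 (SE 0.16, edgeR adjusted p = 0.68). Scaling to the 10 pan-EC markers in place of TMM moved the median of all genes to 0.32. The change of Sdpr was then 0.11 and its groups overlapped. Those of Prkcdbp no longer did, as 1 of 8 members, where 27.1% of all genes did not overlap under that scaling. The groups of Sdpr also overlapped on scaling by total counts.

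Cavin 3, encoded by Prkcdbp, is a coat protein tied to caveola trafficking and to protein kinase C delta. Its CPM was 68.7, 68.1 and 36.3 in young samples 1 to 3, and 88.0, 65.7 and 136 at 127, 131 and 136 weeks. The 127- and 136-week samples exceeded all 3 young samples, and the 131-week sample lay just below young samples 1 and 2. Its log2 fold change of 0.74 (SE 0.34, 95% interval -0.04 to 1.53) had the smallest edgeR adjusted p of the 8, 0.42. Without the 136-week sample it was 0.42.

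At the neck of the caveola, Ehd2 encodes the ATPase that holds caveolae at the cell surface. Its CPM was 169, 164 and 50.1 in young samples 1 to 3, and 128, 114 and 371 at 127, 131 and 136 weeks. It had the widest spread of the 8, 7.40-fold from the lowest to the highest sample. Its log2 fold change of 0.68 (SE 0.58, edgeR adjusted p = 0.70) became -0.07 without the 136-week sample.

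Pacsin2 encodes a curvature-sensing protein that shapes the caveola neck and brings in dynamin. Its CPM was 94.2, 92.0 and 121 in young samples 1 to 3, and 140.4, 98.7 and 136 at 127, 131 and 136 weeks. The groups overlapped through young sample 3 and the 131-week sample alone. Its log2 fold change was 0.29 (SE 0.19, edgeR adjusted p = 0.60), and its pattern was not that of Cav1 or Ptrf: young sample 3, the lowest for those, was the highest young sample for Pacsin2.

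As a list, 6 of the 8 genes had a positive log2 fold change and 2 (Cav2, Sdpr) a negative one, with a median of 0.48 against 0.01 over all genes tested. Without the 136-week sample the median of the 8 was 0.11. On scaling to pan-EC markers all 8 were positive, with a median of 0.79 against the shift of 0.32 in all genes, and none passed the test. With TMM the 10 pan-EC markers themselves had 2 positive and 8 negative values, with a median of -0.25. This scaling therefore raises the values of other genes. The fold changes under these settings are plotted side by side.

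**Figure D2:**
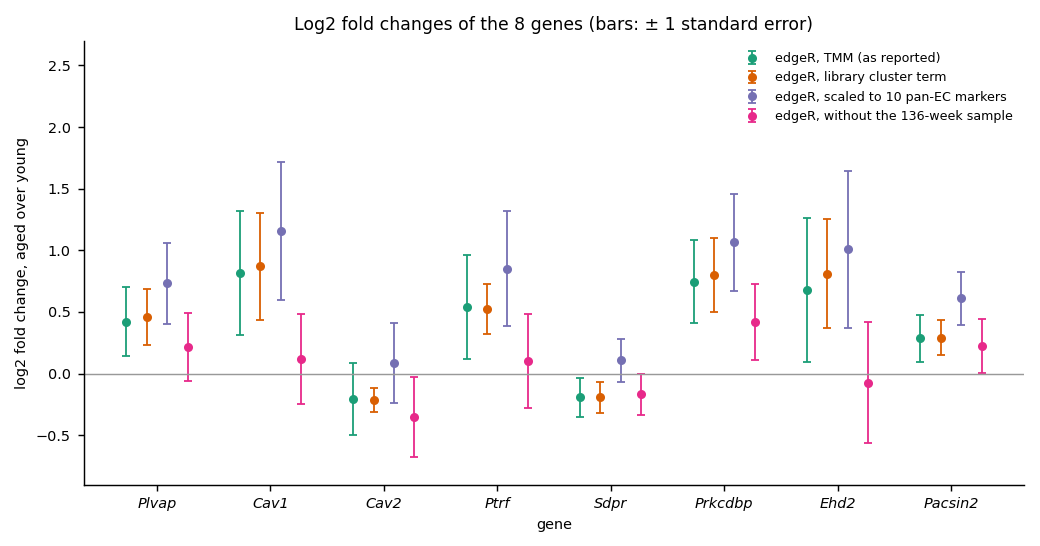
Log2 fold change of aged over young ECs for each of the 8 genes, with bars of ± 1 SE, in the edgeR test as reported, with a term for the library cluster, scaled to the 10 pan-EC markers, and without the 136-week sample. Without that sample Cav1 moves from 0.82 to 0.12 and Ehd2 from 0.68 to -0.07, while scaling to pan-EC markers puts all 8 points above 0.

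The profiles over samples fell into shared and separate patterns. The 5 genes Plvap, Cav1, Ptrf, Prkcdbp and Ehd2 had their highest value at 136 weeks and their lowest in young sample 3, by 2.46-fold for Plvap up to 7.40-fold for Ehd2 between these 2 samples. In the other 4 samples they did not keep a common order. At 127 weeks Prkcdbp exceeded young samples 1 and 2 while Ptrf lay below them, and at 131 weeks Ptrf exceeded them while Ehd2 and Cav1 lay below. The likeness of the 5 profiles thus rests on 2 of the 6 libraries, and how many of all genes share these extremes was not counted. Markers of stellate, mural and fibroblast cells, 16 genes in all, summed to 187 CPM in young sample 3, 827 CPM at 136 weeks and 300.0 to 576 CPM in the other 4. Of the sum at 136 weeks 496 CPM came from Reln, and without it the other 15 were lowest in young sample 3 (117 CPM) but highest in young sample 1 (421 CPM), with 331 CPM at 136 weeks. Smooth muscle cells and fibroblasts are known to hold caveolae too. Their part in the values of the 5 genes was not tested.

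**Figure D3:**
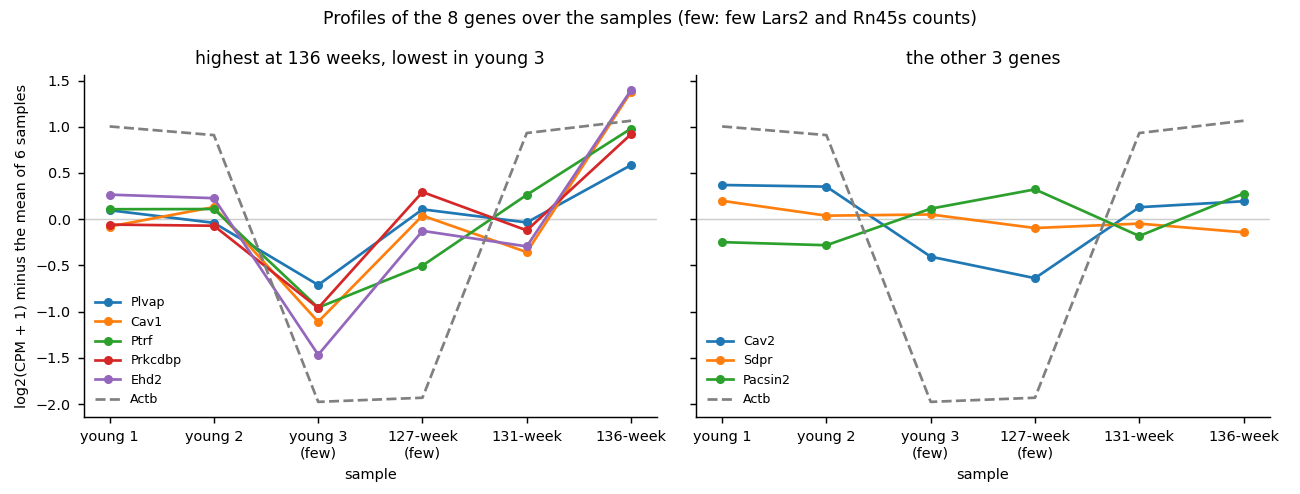
Profiles of the 8 genes over the 6 samples, as log2(CPM + 1) minus the mean of the 6 samples, with the 5 genes that were highest at 136 weeks and lowest in young sample 3 on the left and the other 3 on the right. The dashed line is Actb, which was 450 and 464 CPM in the 2 libraries with few Lars2 and Rn45s counts and 3331 to 3710 CPM in the others; Cav2 dips in the same 2 libraries.

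Within the larger library cluster the 2 aged samples lay apart for these genes, and only Ptrf of the 5 was higher at 131 weeks than in both young samples. The 131-week sample was at 0.956 times the mean of young samples 1 and 2 for Plvap, 0.961 times for Prkcdbp, 0.765 times for Cav1 and 0.685 times for Ehd2. The 136-week sample exceeded the 131-week sample 1.54-fold for Plvap, 2.07-fold for Prkcdbp, 3.33-fold for Cav1 and 3.25-fold for Ehd2. Against the mean of young samples 1 and 2, these 4 genes were therefore not higher in each aged sample of this cluster.

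In the smaller cluster the 127-week sample exceeded young sample 3 for the same 4 genes, from 1.76-fold for Plvap to 2.56-fold for Ehd2. It was below young sample 3 for Cav2 (0.851 times) and Sdpr (0.903 times). The sign of the aged minus young difference was the same in both clusters for each of the 8 genes, when the 131- and 136-week samples are averaged. The share of all genes with the same sign in both clusters was not counted. A fit with a term for the library cluster gave adjusted p-values of 0.28 and above in edgeR for the 8 genes, where 0.0137% of all genes were called. At an unadjusted p below 0.05 that edgeR fit marked Ptrf (log2 fold change 0.52) and Prkcdbp (0.80), 2 of 8, against 16.7% of all genes.

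The library cluster itself went with the level of Cav2. In the same fit Cav2 was lower in the 2 libraries with few Lars2 and Rn45s counts by a log2 difference of -0.79 (SE 0.11, edgeR adjusted p = 0.032). It was the 1 of 8 members called, where 3.81% of all genes were called and 1.72% were called lower in those libraries. Ptrf (-1.12, adjusted p = 0.056 by edgeR), Ehd2 (-1.305, adjusted p = 0.20) and Cav1 (-0.93, adjusted p = 0.32) did not pass, and Sdpr differed by -0.04. Actb, which encodes beta-actin, differed by -2.94 in the same direction (adjusted p = 0.010 by edgeR).

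Ratios of FPKM within a sample do not depend on the scaling between libraries. The ratio of Cav2 to Cav1 was 1.06, 0.901 and 1.27 in young samples 1 to 3, and 0.485, 1.09 and 0.339 at 127, 131 and 136 weeks. It was lower in 2 of the 3 aged samples than in any young sample, and the 131-week sample lay within the young range. The mean log2 ratio differed by -0.92 between aged and young ECs (two-sided exact permutation test, p = 0.3, n = 3 each, adjusted p = 0.75 over 5 ratios). The smallest p that 3 against 3 samples can give is 0.1.

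The cavins did not keep fixed ratios to each other. Sdpr to Ptrf was 4.19, 3.75 and 7.92 in young samples 1 to 3, and 5.22, 3.17 and 1.81 at 127, 131 and 136 weeks, a log2 difference of -0.69 (exact permutation p = 0.4). Prkcdbp to Ptrf was 0.576 to 0.647 in young samples, and 1.15, 0.5004 and 0.629 in the aged ones (log2 difference 0.25, exact permutation p = 0.8). Ptrf to Cav1, at 0.761 to 0.880 in young samples, spread from 0.531 to 1.19 in aged ones (-0.21, exact permutation p = 0.6). Plvap to Cav1 was 7.43 to 11.1 in young and 4.83 to 10.5 in aged samples (-0.27, exact permutation p = 0.6). All 5 ratios overlapped between the groups. Within the larger and the smaller library cluster the log2 difference was -0.68 and -1.39 for Cav2 to Cav1, while it changed sign between the clusters for Ptrf to Cav1 (0.03 and -0.70) and for Prkcdbp to Ptrf (-0.04 and 0.82). The SD among aged samples exceeded that among young ones for 4 of the 5 ratios, most for Prkcdbp to Ptrf (0.342 against 0.0401), and was smaller for Sdpr to Ptrf (1.72 against 2.29). These differences in spread were not tested.

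**Figure D4:**
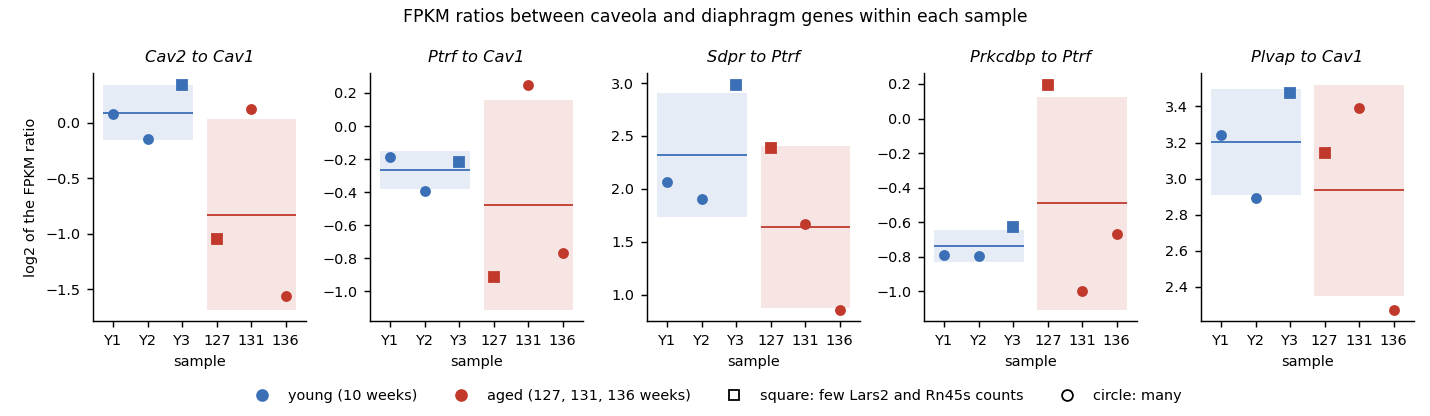
Log2 of the FPKM ratio between 2 genes within each sample, for 5 ratios; the vertical axes do not start at 0 and differ between panels. Lines are group means, bands ± 1 SD (n = 3), and squares the 2 libraries with few Lars2 and Rn45s counts. In each panel the aged points overlap the young ones.

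The genes whose profile was most like that of Plvap, by Pearson r of log2(CPM + 1) over the 6 samples among 8905 genes with a mean CPM of at least 10, were Fam101b (r = 0.994), Msra (r = 0.994) and Hdgf (r = 0.990). For Cav1, Ttyh2 (r = 0.996) and Gdpd1 (r = 0.995) came first. Each of these 5 genes was also lowest in young sample 3 and highest at 136 weeks, and the 6 points of each comparison share these libraries. Ttyh2 had 9.57, 11.7 and 5.21 CPM in young samples and 11.4, 8.87 and 29.2 CPM at 127, 131 and 136 weeks.

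Around the 8 genes, relatives and partners of caveola proteins were listed as 15 genes, some of which work elsewhere in the cell, and 11 were tested (Cav3, Murc, Pacsin1 and Dnm1 had at most 12 counts in any sample). Of the 11, 9 had a positive and 2 a negative log2 fold change, with a median of 0.25. None was called by edgeR, 2 had an unadjusted p below 0.05 (12.6% of all genes did), and DESeq2, with 4.37% of all genes called, called 1, Ehd4 (0.60, DESeq2 adjusted p = 0.049). The largest were those of Ror1 (1.26) and Pacsin3 (1.14), both at low levels (at most 1.83 and 5.54 CPM). Ehd3, a paralogue of Ehd2 that works in endosomal recycling, had the most negative value. Its CPM was 5556, 4472 and 4315 in young samples 1 to 3, and 2466, 4269 and 760.2 at 127, 131 and 136 weeks. Every aged value was below every young one, and the 136-week sample, where Ehd2 was highest, had the least Ehd3. The log2 fold change of Ehd3 was -0.94 (SE 0.54, edgeR adjusted p = 0.54). Dnm2, the dynamin that cuts membrane necks, followed at -0.34 (SE 0.15, edgeR adjusted p = 0.42).

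Proteins known to reside in endothelial caveolae, 6 genes, had 1 positive and 5 negative values with a median of -0.18. On scaling to pan-EC markers 4 were positive and 2 negative, with a median of 0.14 against 0.32 over all genes. Neither edgeR nor DESeq2 called any, and 1 of 6 had an unadjusted p below 0.05 in edgeR, against 12.6% of all genes. Kdr, the main VEGF receptor, had the most negative of them, -0.65 (SE 0.25, edgeR adjusted p = 0.37), followed by the water channel Aqp1 at -0.48 (SE 0.48, edgeR adjusted p = 0.74). Nos3, the endothelial nitric oxide synthase that caveolin 1 binds, was at 264, 268 and 390 CPM in young samples and 397, 251 and 303 CPM at 127, 131 and 136 weeks, and the groups overlapped. Nos3 and Kdr also belong to the list of fenestration signals.

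Signals and factors known from sinusoidal fenestration, 16 genes, had 7 positive and 9 negative values with a median of -0.15. On scaling to pan-EC markers 10 were positive and 6 negative, with a median of 0.14 against 0.32 over all genes. None was called by edgeR, 4 of 16 had an unadjusted p below 0.05, against 12.6% of all genes, and DESeq2 called 2 of 16, against 4.37%. Vegfa, the ligand that maintains fenestrae, was at 16.8, 18.3 and 20.0 CPM in young samples 1 to 3, and at 43.0, 46.1 and 88.0 CPM at 127, 131 and 136 weeks. All 3 aged values were above 2 times any young value, with a log2 fold change of 1.68 (SE 0.29, adjusted p = 0.19 by edgeR and 5.1e-05 by DESeq2). Gucy1a3, a subunit of the nitric oxide receptor, followed at 0.89 (SE 0.38, edgeR adjusted p = 0.40). At the other end stood Gdf2, which encodes BMP9, a ligand made by stellate cells, at -3.34 (SE 0.99, adjusted p = 0.28 by edgeR and 0.010 by DESeq2), with 0.726 CPM in young sample 3 against 9.27 and 6.72 CPM in the other young ones. The transcription factor gene Maf was at -0.86 (SE 0.35, edgeR adjusted p = 0.38).

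The cytoskeleton around fenestrae, 16 genes, had 10 positive and 6 negative values with a median of 0.06, near that of all genes. All 16 were positive on scaling to pan-EC markers, with a median of 0.37 against 0.32 over all genes. With TMM the list's largest values were those of Ezr (0.59) and Mylk (0.57), and its most negative those of Rac1 (-0.29) and Cdc42 (-0.23). None was called by edgeR or DESeq2, and 1 of 16 had an unadjusted p below 0.05 in edgeR, against 12.6% of all genes. The clathrin route, the other main way of uptake in sinusoidal ECs, had 1 positive and 11 negative values of 12, with a median of -0.35. On scaling to pan-EC markers 5 were positive and 7 negative, with a median of -0.06 against 0.32 over all genes. None was called by edgeR, 5 of 12 had an unadjusted p below 0.05, against 12.6% of all genes, and DESeq2 called 1 of 12, against 4.37%. The positive gene was Cltb, a clathrin light chain, at 0.52. Of the clathrin adaptor genes, Ap2a2 had 366, 377 and 386 CPM in young samples and 229.9, 277 and 176 CPM at 127, 131 and 136 weeks, a log2 fold change of -0.73 (SE 0.19, adjusted p = 0.25 by edgeR and 0.017 by DESeq2). Ap2s1 was at -0.70 (SE 0.21, adjusted p = 0.28 by edgeR and 0.075 by DESeq2). The median of the clathrin list was thus on the other side of 0 from that of the 8 caveola and diaphragm genes, a difference that was not tested.

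**Figure D5:**
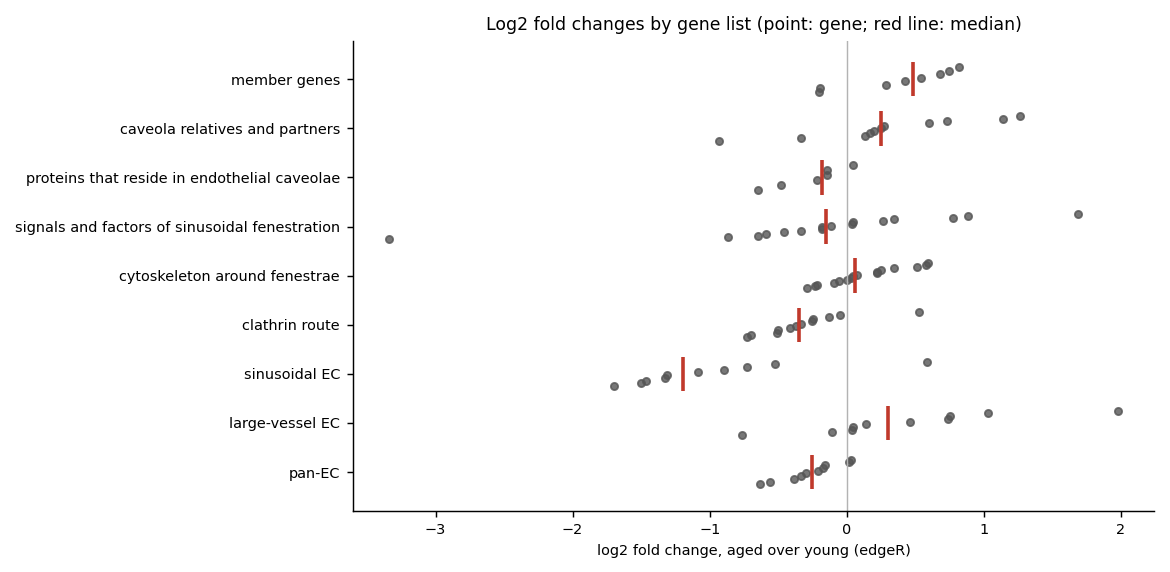
Log2 fold change of aged over young ECs in edgeR for each tested gene of 9 lists; each point is a gene and each red line a list's median. The medians of the 8 member genes (0.48), of the clathrin route (-0.35) and of sinusoidal EC markers (-1.20) stand on different sides of 0, and no gene of these lists was called by edgeR.

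Levels of EC type markers also differed between these samples. The 10 markers of sinusoidal ECs summed to 21335 to 22686 CPM in young samples, and to 8207, 14264 and 8230.1 CPM at 127, 131 and 136 weeks. Of the 10, 9 had a negative log2 fold change, with a median of -1.20. DESeq2 called 7 lower, where it called 4.37% of all genes in either direction. EdgeR called none and gave 8 an unadjusted p below 0.05, against 12.6% of all genes. Stab2, a scavenger receptor of these cells, was at -1.70 (SE 0.49, edgeR adjusted p = 0.26) and Stab1 at -0.73 (SE 0.19, edgeR adjusted p = 0.25). Markers of large-vessel ECs, 10 genes, had 8 positive values with a median of 0.30. EdgeR called none, 4 of the 10 had an unadjusted p below 0.05, and DESeq2 called 2 higher, against the same shares of all genes (12.6% and 4.37%). ECs of larger vessels and capillaries with a continuous wall are known to be rich in caveolae. Vwf was at 0.05 and Cd34 at 0.74 (SE 0.32, edgeR adjusted p = 0.40). The 10 summed to 6769, 6971 and 4815 CPM in young samples 1 to 3, and to 5477, 7102 and 6031 CPM at 127, 131 and 136 weeks. The sum was lowest in young sample 3, like the 5 member genes, but highest at 131 weeks, and 3 of the 10 (Cd34, Fbln5 and Jag1) had both extremes where the 5 had them.

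Among 3 lymphatic EC markers, Prox1 stood at 27.1, 34.1 and 16.1 CPM in young samples, and at 68.2, 26.3 and 160 CPM at 127, 131 and 136 weeks, again lowest in young sample 3 and highest at 136 weeks, and Pdpn ranged from 4.16 CPM in young sample 3 to 28.1 CPM at 136 weeks. Ccl21a, a lymphatic chemokine gene, is listed at 0 counts in all 6 samples. The mouse genome is known to hold near-identical copies of it, and how their reads were counted is not given, so this 0 is no measure of its expression. The part of EC subtypes in the values of the 8 genes was not tested. Of the remaining marker lists, the log2 fold changes were positive for leukocytes (18 of 18 tested genes, median 2.40) and cholangiocytes (5 of 5, median 0.79), negative for most hepatocyte genes (10 of 11) and for mesothelial ones (3 of 3), and split for stellate, mural and fibroblast cells (9 positive and 7 negative). EdgeR called none of these. An unadjusted p below 0.05 was reached by 9, 2, 3, 2 and 1 of them in that order of lists, against 12.6% of all genes. DESeq2 called 5, 2, 2, 1 and 1, against 4.37% of all genes.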

How the data were processed

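Reads of 3 young and 3 aged samples of CD31+CD45- liver ECs were processed by the authors. Bases were called with CASAVA (1.8.2) and reads of 75 bases mapped to mm9 with TopHat (2.1.0). The authors deposited whole-number counts of reads for each gene symbol, not normalized, and FPKM values made and scaled between samples by Cuffnorm (2.2.1); a count rises with transcript length, whereas FPKM does not. The counting program, the annotation and the use of strand are not given in the sources used here, so reads of overlapping and antisense genes cannot be told apart.

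Samples were grouped by the age in their labels. Genes that reached 0.5 CPM in 1 or more samples, 14612 of 24421, were normalized by TMM and tested over 3 young and 3 aged samples with the quasi-likelihood test of edgeR (4.0.16, in R 4.3.3). Benjamini-Hochberg adjustment was over all genes tested, and genes with an adjusted p below 0.05 were called. The SE of a log2 fold change was derived from it and the F statistic. The scripts were tested on simulated data. Alternatives were DESeq2 (1.42.0), limma-voom, limma (3.58.1) on log2(FPKM + 1) and log2(FPKM + 0.1), other scalings and filters on low values, a term for the library cluster (Lars2 and Rn45s below 3% of counts), the removal of those symbols and the removal of each sample in turn.

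All 8 member genes were described. Of the other lists the 2 largest and the 2 smallest log2 fold changes and the first 2 genes of a marker list were named, with the 3 genes most like Plvap and Cav1, of which 1 is not reported here. Nos3, Ehd4, Actb, Reln, Fbln5, Jag1, Ccl21a and the promoters shown were singled out after values were seen. The members and lists were chosen with earlier results of these data known. Total counts of 23001556 to 31651817 gave each member at least 1150 counts per sample, a counting error of at most 2.95%, which covers counting error only. The study's other assays were not analysed here.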

Additional observations from a re-analysis of the deposited data

How the results depend on the processing

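No member was called under any of the 18 alternatives. Of the log2 fold changes of the members, those of Cav2 and Sdpr changed sign on scaling to pan-EC markers (0.087 and 0.11). Both stayed below the median of all genes under that scaling, 0.32. That of Cav2 also changed sign without aged replicate 1, the 127-week sample (0.019). That of Ehd2 did so without aged replicate 3, the 136-week sample (-0.073). With a sample left out, Cav2 ran from -0.42 to 0.019 and Ehd2 from -0.073 to 0.97. The causes were not tested. Over all genes, the counts called higher and lower were 484 and 155 with DESeq2, 4 and 0 on pan-EC scaling, 3 and 1 with no low-count filter, 1 and 1 in limma with FPKM + 0.1, 9 and 0 in limma on FPKM without a filter and 1 and 1 with the cluster term, against 0 and 0 in edgeR. Leaving out each sample in turn gave 0 to 1 genes called higher and 0 called lower. Members with groups that do not overlap numbered 0 with total counts (17.3% of all genes) and 1 to 4 when a sample was left out, which raises the count by construction (23.2% to 34.5% of all genes). Without the 131-week sample the 4 were Plvap, Sdpr, Prkcdbp and Pacsin2, where 34.5% of all genes did not overlap. With a sample left out, the median over the 8 members ran from 0.11 to 0.65. The log2 differences of FPKM ratios then ran from -1.39 to -0.55 for Cav2 to Cav1, from -0.58 to 0.0055 for Ptrf to Cav1, from -1.06 to -0.29 for Sdpr to Ptrf, from -0.096 to 0.50 for Prkcdbp to Ptrf and from -0.50 to 0.063 for Plvap to Cav1. No paired analysis was possible because the young and aged samples share no replicate number in the labels that marks an animal, litter or day.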
